A study of Mus musculus with 18 samples.

Results

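The genes described here rose during neural differentiation (ND) of Zeb2 KO mouse embryonic stem cells (ESCs) and in control cells ended little above the level at which they had started, or below it. They were chosen from the deposited values by a fixed pair of limits. The mean of log2(TPM + 1) had to be at least 2 higher on d6 than on d0 in Zeb2 KO cells, while in Ctrl cells the same difference had to be below 0.5. TPM, the usual unit of transcript abundance in RNA-seq, is a level per length of the gene and per library. Of 10965 genes, 55 (0.502%) met both limits, out of 961 (8.76%) that met the limit in Zeb2 KO cells. Levels on d0 and d6 in both genotypes therefore chose the members and are described without a test. The d4 libraries took no part in these limits, and the comparison of the genotypes on d4 is the only one tested. The authors' filter of the table, a minimum of 5 TPM in a few samples of any day, did use them. Ankrd34a passed that filter only through KO cells on d4 (5.74, 5.70 and 5.28 TPM). Its higher KO level on d4 is therefore no independent result.

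Zeb2 is a zinc-finger transcription factor that binds CACCT-type DNA boxes, acts mostly as a repressor and is needed for neural development. Mouse ESCs in 2i + LIF, a medium with inhibitors of Mek and Gsk3, hold a naive ground state. On leaving it, cells pass through a state like the epiblast of the embryo just after implantation, in which the DNA methyltransferases and a set of signalling genes are switched on, before they take on a neural or other fate. Genes of that intermediate state normally go down again as cells commit.

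RNA was sequenced from ESCs of strain CD1 whose Zeb2 alleles carry loxP sites (genotype Zeb2 fl/fl, named Ctrl) and from ESCs lacking both alleles (Zeb2 -/-, named KO). Each genotype was sampled in 2i + LIF (d0), after 4 days as embryoid bodies (EBs) in medium with 15% serum (d4) and after 2 further days in N2B27 with 500 nM retinoic acid (d6), in 3 biological replicates each, which gave 18 libraries. The study describes KO lines of more than 1 derivation, and which of them were sequenced is not given in the sources used here, so a difference between the genotypes cannot be told apart from a difference between the lines. Replicates were described as independent experiments.

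The libraries held 9622622 to 15617675 reads on the genes of the table (median 12131165). Zeb2 itself averaged 0.129 TPM in Ctrl cells on d0, 1.36 on d4 and 7.66 on d6, against 0.0216, 0.164 and 0.681 TPM in KO cells. Summed over 8 ESC markers, the level on d6 was 823 to 945 TPM in Ctrl and 1593 to 1859 TPM in KO libraries, from 5238 to 5451 and 4969 to 5324 TPM on d0. Over 7 markers of neural progenitors it was 469 to 542 TPM in Ctrl and 94.2 to 112 TPM in KO libraries on d6. The KO libraries labelled as neural progenitors thus had a lower summed level of those markers than any Ctrl library of d6, without overlap. On d4, the day of the test, the genotypes also differed in such sums without overlap. The ESC markers summed to 2531 to 3149 TPM in Ctrl and 3484 to 3894 TPM in KO libraries, and those of neural progenitors to 285 to 341 and 212 to 228 TPM. Single markers did not all follow these sums. In Ctrl and KO cells of d4, Pou5f1 averaged 453 and 1015 TPM, Esrrb 261 and 269 TPM and Tbx3 17.1 and 12.9 TPM. Of the neural markers, Pax6 averaged 17.2 and 7.62 TPM, and Nes 12.6 and 18.8 TPM. The 2 of 6 mesoderm markers in the table summed to 190 to 232 TPM in Ctrl and 3.44 to 4.77 TPM in KO libraries of d4, and to 130 to 184 and 8.52 to 13.5 TPM on d6. Eomes, 1 of these 2, did not follow the sum. It averaged 3.62 TPM in Ctrl and 3.27 TPM in KO cells on d4, and was higher in KO on d6 (2.00 and 9.93 TPM). For 5 endoderm markers the sums were 11.8 to 13.6 and 5.71 to 9.16 TPM on d4, and 81.5 to 123 and 15.95 to 22.7 TPM on d6. In whole EBs, more cells with a transcript and more of it per cell cannot be told apart, and the part that these shifts in cell markers have in the results below was not tested.

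**Figure D1:**
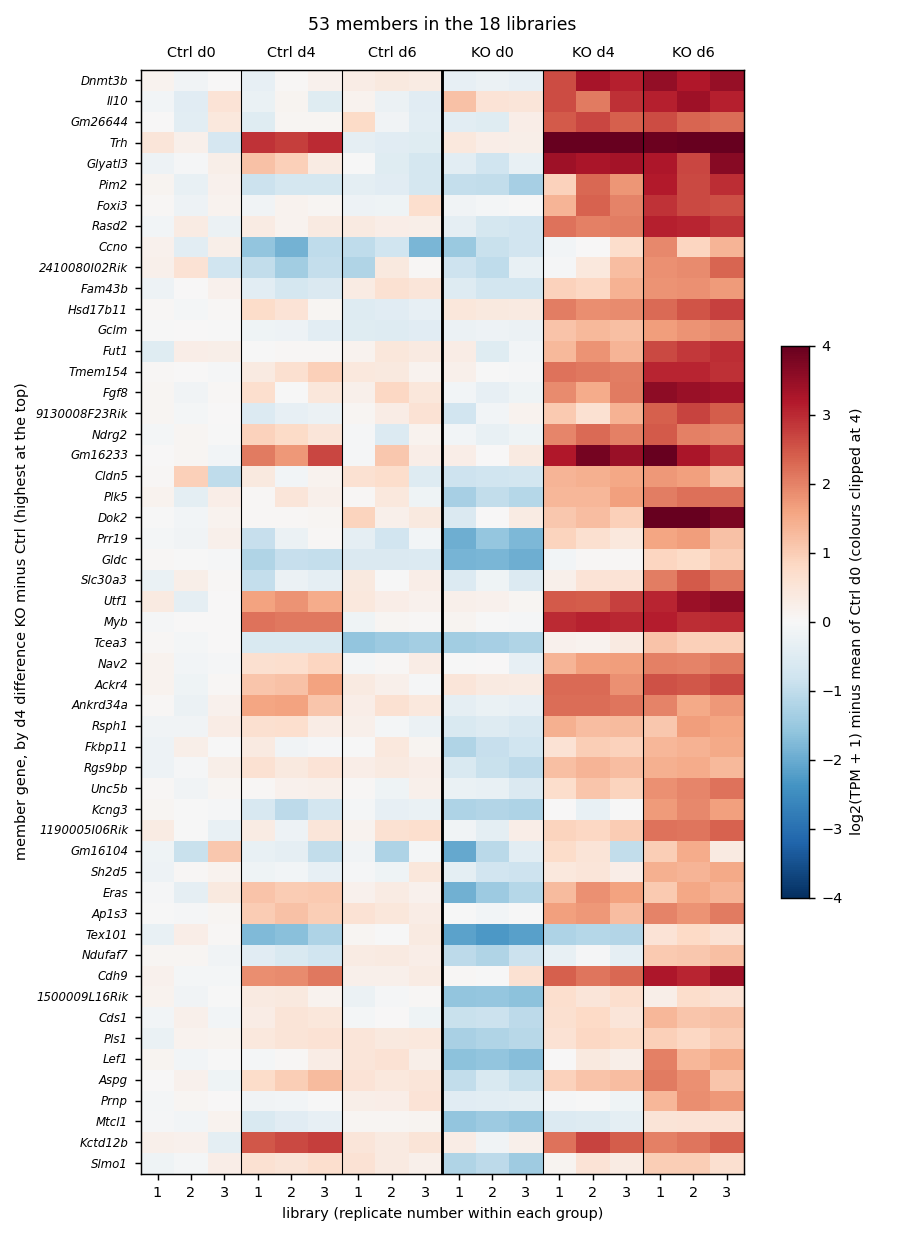
Level of 53 of the 55 members (rows, ordered by the d4 difference between the genotypes) in the 18 libraries (columns), as log2(TPM + 1) minus the mean of the 3 Ctrl d0 libraries, with colours clipped at 4. By the choice of members each row rises by at least 2 from the KO d0 to the KO d6 columns and by less than 0.5 from the Ctrl d0 to the Ctrl d6 columns. In the d4 columns, which the limits did not use, KO was higher than Ctrl for the 39 of these genes that passed the test, though not always higher than Ctrl on d0.

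Among the members, 51 are protein-coding and 4 are long noncoding RNAs (lincRNA or antisense), and 0 are pseudogenes, which make up 11.4% of all genes in the table. By their known roles they hold regulators of chromatin and pluripotency, 3 transcription factors, secreted proteins, 10 kinases, GTPases, adaptors and receptors, 9 enzymes and folding factors, and proteins of the cell surface and the cytoskeleton. In KO cells the difference between d6 and d0 in log2(TPM + 1) had a median of 2.51 (range 2.01 to 4.02), against 0.17 over all genes. In Ctrl cells it was 0.14 (range -1.47 to 0.50), against 0.26 over all genes. The median of the members' mean levels in KO cells went from 2.76 TPM on d0 to 14.3 on d4 and 21.2 on d6.

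The limits cut through a continuous cloud of genes. Just inside the KO limit lay Ap1s3 (2.01), a subunit of a clathrin adaptor, Gclm (2.02), the modifier subunit of the enzyme that starts glutathione synthesis, and Rsph1 (2.04), a protein of motile cilia. Just outside lay Them6 (1.96), Sytl1 (1.96) and Stk17b (1.94). At the Ctrl limit, Fgf8 (0.50), Dok2 (0.49) and Aspg (0.49) were just inside, and S100a6 (0.51), Clca4a (0.53) and Abcc8 (0.54) just outside. With a pseudocount of 5 in place of 1, 26 genes met the limits, 19 of them members, and after quantile normalization 88 did, 31 of them members. Which genes belong is thus sensitive to how low values and library scale are treated. When 1 library at a time was left out, 51 to 57 genes met the limits, and 37 members did so each time.

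**Figure D2:**
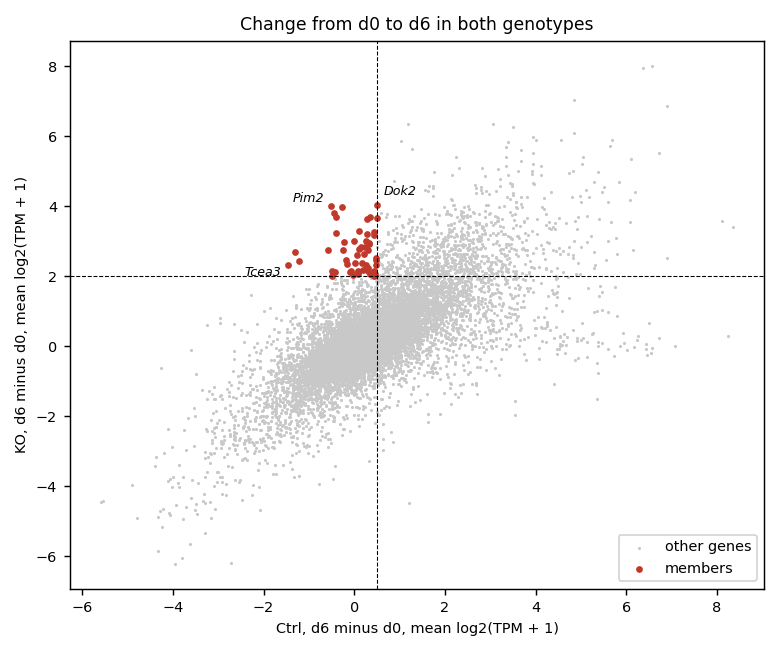
Difference between d6 and d0 in mean log2(TPM + 1) in Ctrl (x axis) and KO cells (y axis) for 10965 genes, with the 55 members in red and the limits of 2 and 0.5 as dashed lines. The members run from 2.01 up to Dok2 and Pim2 (4.02 each) on the y axis, and Tcea3 lies furthest to the left.

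In the d4 libraries, 40 of the 55 members (72.7%) were higher in KO than in Ctrl (limma on log2(TPM + 1), called where the p adjusted by the Benjamini-Hochberg method over the whole table was below 0.01). Over all genes 12.7% were called higher. None of the members was called lower (0 of 55, and 0 at an unadjusted p below 0.05), where 32.7% of all genes were. All 40 had every KO library above every Ctrl library on d4. They include Ankrd34a, whose d4 result is not independent of the authors' filter. In all, 45 members (81.8%) were above without overlap, against 20% of all genes, and 0 were below without overlap, as were 45.7% of all genes. The median difference of the members on d4 was 0.91 on the log2 scale, and that of all genes was -0.16. With the study's limits put on this fit, an unadjusted p below 0.01 and a log2 difference above 1, 25 members were called, against 2.18% of all genes. The study put its limits on DESeq2 results from raw counts. The pseudocount used here shrinks differences of genes with low levels, so the 2 measures are unlike. Scaling by median ratios moved the median of all genes to 0.00 and that of the members to 1.05, and the genes called over the whole table went from 1397 higher and 3591 lower to 2299 and 2335.

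The 906 genes that also rose by at least 2 in KO cells, but by 0.5 or more in Ctrl cells, gave other counts on d4. Of them 141 (15.6%) were called higher in KO and 299 (33.0%) lower, with a median difference of -0.21. They rose by a median of 1.66 in Ctrl cells between d0 and d4. The Ctrl change from d0 to d6 is what parted these genes from the members. Their median difference between the genotypes on d6 was 0.06, against 1.99 for the members. A contrast on d4 was thus favoured by the limits, and nothing is read from it.

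**Figure D3:**
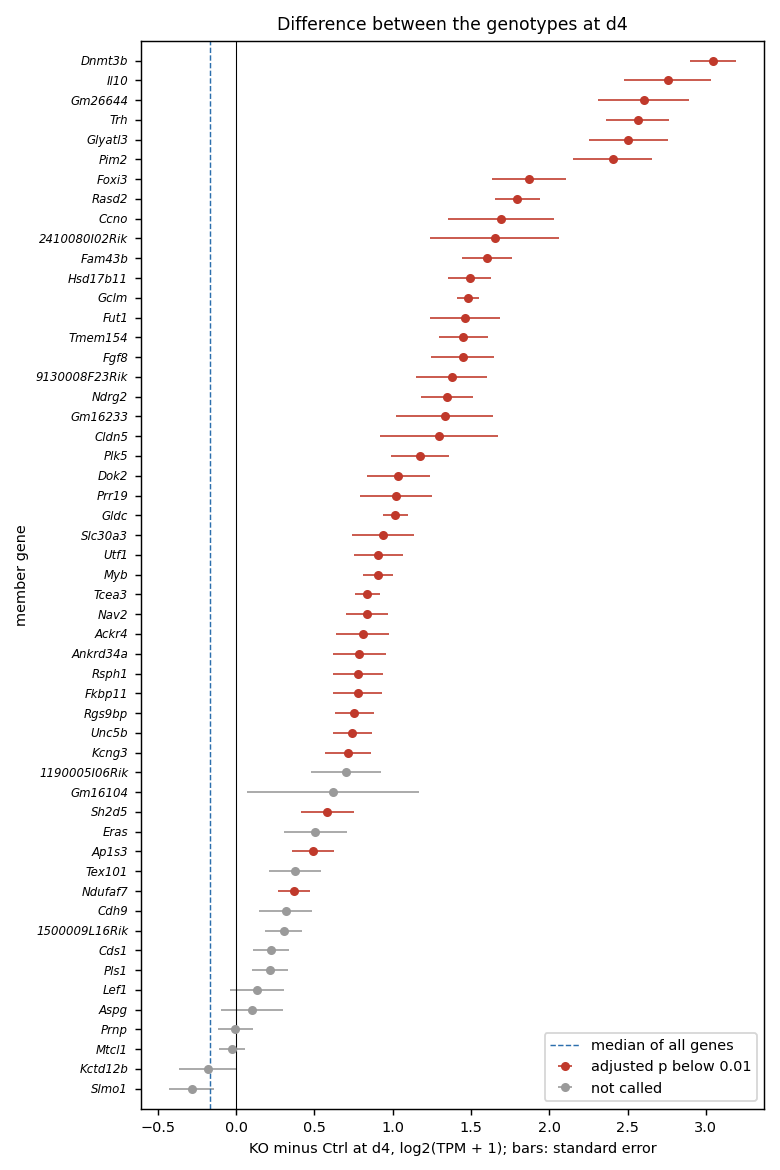
KO minus Ctrl on d4 in log2(TPM + 1) for 53 members, with bars of 1 standard error from the limma fit (3 libraries per group); red points passed an adjusted p below 0.01 and grey points did not. The red points run from 0.37 (Ndufaf7) to 3.05 (Dnmt3b), and 4 grey points lie below 0.

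In KO cells the median member changed by 1.86 between d0 and d4 and by 0.75 between d4 and d6 on the log2 scale, against 0.15 and 0.03 over all genes. By d4 the members had reached a median of 73.6% of their d0 to d6 change. The median over all genes was 66.1%, but it is no like reference. The d0 to d6 change of all genes in KO cells had a median of 0.17, and a share of so small a change is unstable. Between d0 and d4, 51 members rose by at least 1 in KO cells (15.2% of all genes did), and between d4 and d6, 18 did (6.81% of all genes). The level in KO cells on d6 was below that on d4 for 9 members (16.4%, and 47.3% of all genes): Trh, Myb, Eras, Glyatl3, Gm16233, Gm26644, Kctd12b, Ankrd34a and 1500009L16Rik. Of these Trh fell by 1.34 and the others by less than 0.5. Since a rise of at least 2 between d0 and d6 was required, these shares were largely fixed by the choice of members and nothing is read from them. All 55 were higher in KO than in Ctrl libraries on d6 without overlap (22.7% of all genes), 49 of them by at least 1 (4.79% of all genes), which the choice of members favours and from which nothing is read.

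Roles were assigned to the members after their values were seen. The counts of called genes by role, here and below, stand beside 72.7% of all members and 12.7% of all genes. Nothing is read from a difference between roles. The first group holds regulators of chromatin and pluripotency, and all 3 passed the test on d4. Dnmt3b (ENSMUSG00000027478, chr2:153649450-153687730 in GRCm38, plus strand) encodes a methyltransferase that sets new DNA methylation and is a hallmark of the epiblast after implantation. Its level in Ctrl cells was 46.1, 37.1 and 41.4 TPM on d0, 33.0, 42.5 and 46.4 TPM on d4 and 51.6, 54.7 and 51.9 TPM on d6. In KO cells it was 32.9, 34.9 and 32.5 TPM on d0, 260, 413 and 363 TPM on d4 and 484, 387 and 474 TPM on d6. The 3 KO libraries of d4 were all more than 5 times as high as any Ctrl library of that day, and the Ctrl level hardly moved over the whole course. The d4 difference was 3.05 ± 0.15 (SE, n = 3 per group; adjusted p = 1.62e-10 by limma). By d4, 89.3% of the KO change had been reached.

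Utf1 encodes a chromatin-bound protein found in pluripotent cells. It had 183, 112 and 145 TPM in Ctrl cells on d0, 439, 505 and 403 TPM on d4 and 193, 172 and 160 TPM on d6. KO cells had 165, 163 and 153 TPM on d0, 797, 771 and 964 TPM on d4 and 1208, 1564 and 1731 TPM on d6, the highest level of any member on that day. Utf1 was not flat in Ctrl cells: it rose in both genotypes by d4, further in KO, and then went back in Ctrl cells alone. On d4 the genotypes differed by 0.91 ± 0.16 (adjusted p = 0.000142 by limma). Tcea3, a relative of the elongation factor TFIIS that is abundant in ESCs, behaved otherwise. Its mean level in Ctrl cells went from 46.1 ± 2.19 (SD, n = 3) TPM on d0 to 29.8 ± 0.188 on d4 and 16 ± 1.23 on d6, whereas in KO cells it went from 18.1 ± 1.28 to 54.2 ± 4.84 and 93.9 ± 6.87. The genotypes thus crossed, and the d4 difference was 0.84 ± 0.08 (adjusted p = 3.91e-07 by limma).

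**Figure D4:**
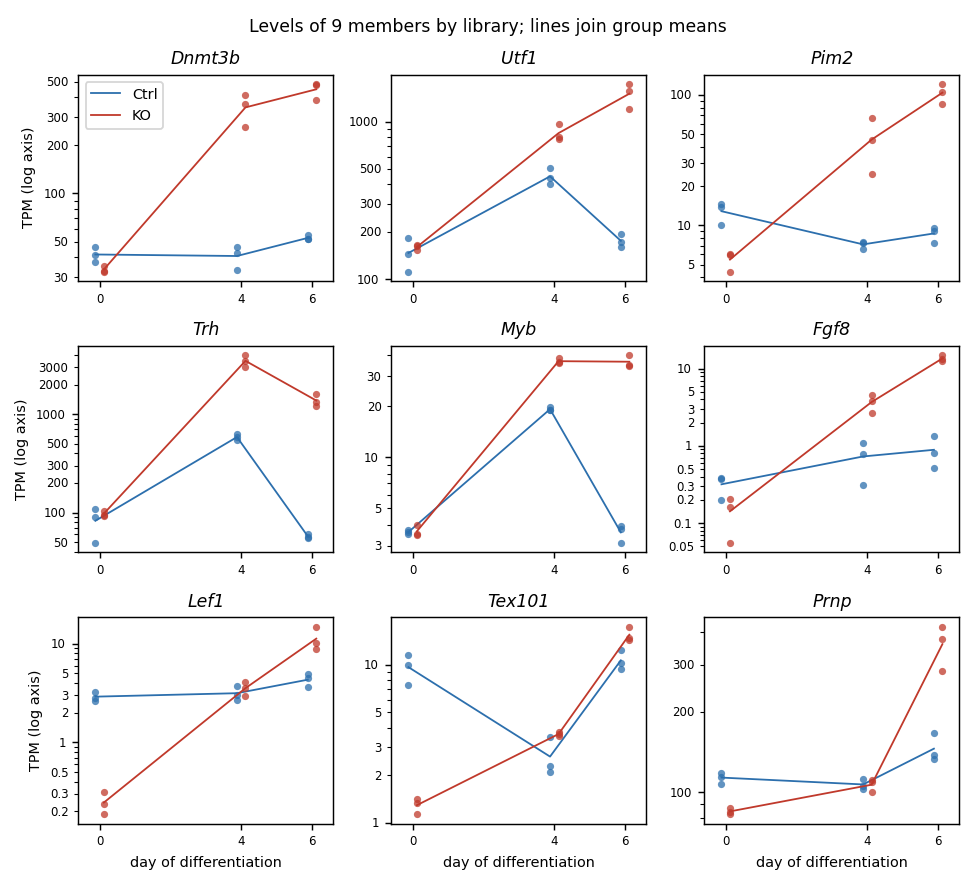
TPM (log axis) of 9 members on d0, d4 and d6 in Ctrl (blue) and KO cells (red), with 1 point per library (3 per group) and lines through the group means. KO was above Ctrl on d4 for Dnmt3b, Pim2 and Fgf8. On d0, KO levels were lower without overlap for Dnmt3b, Pim2, Lef1, Tex101 and Prnp. Utf1, Trh and Myb rose in both genotypes by d4 and fell again in Ctrl cells. Lef1 and Prnp overlapped between the genotypes on d4, and Tex101 dipped on d4 in Ctrl cells.

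Of the 3 sequence-specific transcription factors, Myb and Foxi3 were higher in KO cells on d4 and Lef1 was not called. Myb, known from blood progenitors, had 3.50, 3.64 and 3.69 TPM in Ctrl cells on d0, 19.8, 18.9 and 18.9 on d4 and 3.11, 3.92 and 3.76 on d6. In KO cells it had 3.98, 3.52 and 3.45 TPM on d0, 35.8, 38.3 and 36.5 on d4 and 39.9, 34.7 and 35.2 on d6. Replicates were close, and the rise to d4 occurred in both genotypes, by 2.13 in Ctrl and 3.03 in KO cells on the log2 scale. It was held to d6 in KO cells and lost in Ctrl cells. Myb differed by 0.91 ± 0.09 on d4 (adjusted p = 8.61e-07 by limma). Foxi3, a forkhead factor of the placodal ectoderm, had a mean of 1.91 ± 0.296 (SD, n = 3) TPM in Ctrl and 10.0 ± 3.59 in KO cells on d4, a difference of 1.87 ± 0.24 (adjusted p = 7.56e-06 by limma).

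Lef1 encodes a DNA-binding partner of beta-catenin. In Ctrl cells it had 3.24, 2.63 and 2.84 TPM on d0, 2.66, 3.03 and 3.75 on d4 and 4.44, 4.87 and 3.63 on d6. KO cells had 0.236, 0.314 and 0.186 TPM on d0, from 5 to 14 reads, then 2.96, 4.11 and 3.54 on d4 and 14.8, 8.86 and 10.0 on d6. The low libraries were those of KO on d0, below every Ctrl library, and on d4 the genotypes overlapped. The d4 difference was 0.13 ± 0.17 (adjusted p = 0.535 by limma), with a 95% interval of -0.23 to 0.50. For Lef1 the rise in KO cells up to d4 was thus a rise from a lower start to the Ctrl level.

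Such a lower start was frequent. On d0, 45 members (81.8%) were lower in KO than in Ctrl cells, as were 58.7% of all genes, and 32 were lower without overlap, as were 31.5% of all genes. A difference of at least 1 was found for 17 members (30.9%) and 2.85% of all genes. Since d0 levels in both genotypes entered the choice, a low KO level on d0 helps a gene to meet it, and nothing is read from these shares. Of the 17, 8 were called higher in KO on d4, with a median d4 difference of 0.51, and of the other 38, 32 were called, with a median of 1.17. The 26 members within 0.5 of Ctrl on d0 included 22 that were called. The largest deficits on d0 were those of Tex101, Gldc and Prr19 (-2.20, -1.87 and -1.77 on the log2 scale). Ackr4 and Hsd17b11 were the members higher in KO cells on d0 without overlap (19.9% of all genes).

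Among the secreted proteins, Trh, Fgf8 and Il10 were higher in KO cells on d4. Trh (ENSMUSG00000005892, chr6:92242061-92244650, minus strand) encodes the precursor of thyrotropin-releasing hormone, and it was the most abundant member on d4. In Ctrl cells it had 109, 89.3 and 49.0 TPM on d0, 588, 541 and 627 on d4 and 60.6, 56.3 and 55.2 on d6. In KO cells it had 104, 95.1 and 93.0 TPM on d0, 2989, 3963 and 3506 on d4 and 1204, 1315 and 1611 on d6. Both genotypes peaked on d4, KO cells higher, and no KO library of d4 or d6 overlapped with Ctrl. The d4 difference was 2.57 ± 0.20 (adjusted p = 3.88e-08 by limma). Trh lies on chromosome 6, where the median gene was 0.08 higher in KO on d0 and 0.24 lower on d4.

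Fgf8 (ENSMUSG00000025219, chr19:45736798-45742915, minus strand), a fibroblast growth factor of the epiblast and primitive streak, was rare on d0, with 2 to 6 reads in Ctrl and 0 to 2 reads in KO libraries. On d4 it had 1.08, 0.310 and 0.794 TPM in Ctrl and 3.84, 2.69 and 4.55 TPM in KO cells, and on d6 0.517, 1.34 and 0.809 TPM against 14.9, 13.4 and 12.5 TPM. All KO libraries of d4 and d6 were above those of Ctrl. On d4 the genotypes differed by 1.45 ± 0.20 (adjusted p = 1.81e-05 by limma). Il10, an anti-inflammatory cytokine, rested on 0 to 3 reads per Ctrl library and 27 to 43 per KO library on d4. Its levels were 0.375, 0.815 and 0.201 TPM against 9.26, 6.05 and 11.8 TPM, a difference of 2.76 ± 0.28 (adjusted p = 7.09e-07 by limma).

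**Figure D5:**
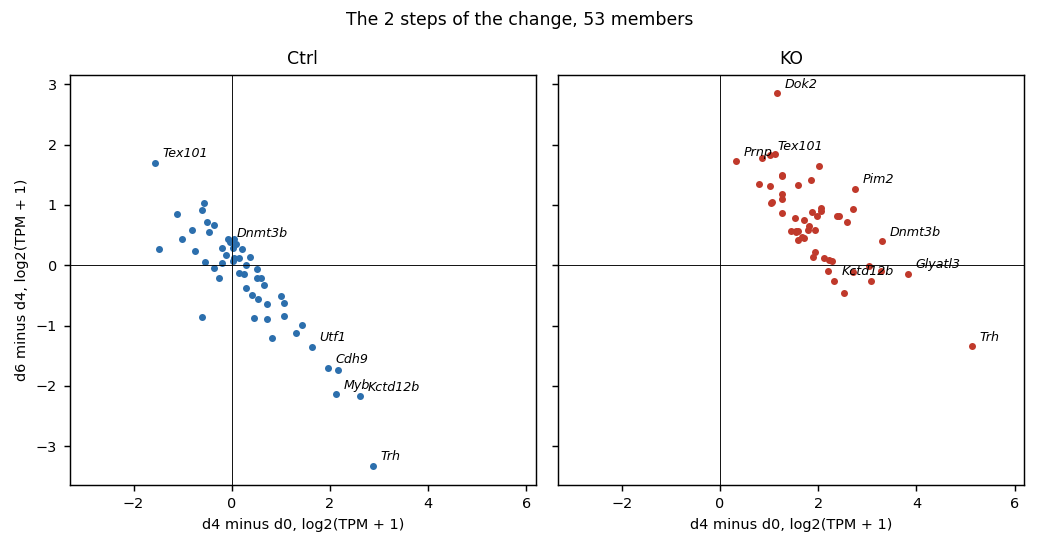
Change between d0 and d4 (x axis) and between d4 and d6 (y axis) in mean log2(TPM + 1) for 53 members in Ctrl (left) and KO cells (right), 1 point per gene. In KO cells 50 points lie at 1 or more on the x axis, with Prnp among the few that rose mostly after d4, and in Ctrl cells the sum of both steps is below 0.5 for every point, as the choice of members requires.

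The course in KO cells varied between members. The share of the change reached by d4 was low for Prnp (16%), Dok2 (29.1%) and Slc30a3 (32.3%), and highest for Trh (135%). Prnp, the prion protein gene, had 102, 106 and 112 TPM in Ctrl and 109, 111 and 100 TPM in KO cells on d4. On d6 it had 133, 137 and 166 TPM in Ctrl and 284, 417 and 376 TPM in KO cells. The d4 levels overlapped fully (0.00 ± 0.11, adjusted p = 0.981 by limma).

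The phrase "induced only in KO" did not hold for every member when d4 was included. In Ctrl cells 10 members rose by at least 1 between d0 and d4 (18.2%, and 21.4% of all genes): Ackr4, Ankrd34a, Ap1s3, Cdh9, Eras, Gm16233, Kctd12b, Myb, Trh and Utf1. By d6, 7 of these and Glyatl3 had fallen again by at least 1 (8 members, 14.5%, and 4.67% of all genes), which the limit on the Ctrl change favours. In KO cells only Trh fell by that much (1.82% of members, and 2.96% of all genes), and the required KO rise disfavours such a fall. Of the 10, 7 were higher in KO on d4 and Cdh9, Eras and Kctd12b were not called. The 7 include Ankrd34a, whose d4 result is not independent. Kctd12b, which encodes a protein with a BTB-type domain, rose most after Trh in Ctrl cells (2.62) and had 8.52, 9.63 and 10.6 TPM in Ctrl against 6.81, 10.2 and 8.30 TPM in KO cells on d4. Its levels overlapped on d4 and parted on d6, at 1.38, 1.19 and 1.48 TPM against 5.99, 6.62 and 7.93 TPM. In the opposite direction, 5 members (9.09%, and 20.3% of all genes) were lower by more than 0.5 on d6 than on d0 in Ctrl cells, among them Ccno, Gldc, Pim2 and Tcea3. By d4, 5 members had fallen by at least 1 in Ctrl cells (6.57% of all genes), among them 2410080I02Rik, Ccno, Gldc and Tex101.

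The signalling proteins inside the cell and at its surface formed the largest group with a shared role. Of these 10, 9 were higher in KO cells on d4, beside 40 of all 55 members and 12.7% of all genes. Pim2 (ENSMUSG00000031155, chrX:7878262-7883432, plus strand), a serine/threonine kinase that favours survival and growth, had 6.58, 7.37 and 7.48 TPM in Ctrl and 24.7, 66.2 and 45.3 TPM in KO cells on d4. On d6 it had 9.55, 9.08 and 7.36 TPM in Ctrl and 121, 84.9 and 106 TPM in KO cells. Its start was lower in KO cells without overlap. The d0 levels were 13.9, 10.1 and 14.5 TPM in Ctrl and 6.07, 5.88 and 4.42 TPM in KO cells (-1.09 on the log2 scale). The KO libraries of d4 differed among themselves by over 2-fold, and still each was more than 3 times as high as any Ctrl library. The d4 difference was 2.41 ± 0.25 (adjusted p = 1.05e-06 by limma). Rasd2, a Ras-like GTPase, had 26.5, 24.0 and 24.1 TPM in KO and 6.74, 5.72 and 6.94 TPM in Ctrl cells on d4 (1.80 ± 0.14 on the log2 scale, adjusted p = 4.59e-08 by limma). Plk5, a polo-like kinase, differed by 1.18 ± 0.19 (adjusted p = 6.94e-05 by limma).

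Dok2, an adaptor that dampens signalling from receptor tyrosine kinases, had the largest d0 to d6 change of any member with Pim2, and most of it came late. It had 2.96, 2.97 and 3.05 TPM in Ctrl and 7.19, 8.06 and 6.40 TPM in KO cells on d4, then 6.10, 3.45 and 4.04 TPM against 63.9, 59.9 and 51.3 TPM on d6. The d4 difference was 1.04 ± 0.20 (adjusted p = 0.000395 by limma). Dok2 overlaps Xpo7 on the opposite strand. Unc5b, a receptor for netrins, and Ackr4, a chemokine receptor that scavenges its ligands, were chosen for mention after their values were seen and differed by 0.74 ± 0.12 and 0.81 ± 0.17 on d4. Eras, a Ras protein of ESCs, had 44.0, 39.9 and 41.5 TPM in Ctrl and 47.9, 72.0 and 61.7 TPM in KO cells on d4. It was above Ctrl in each KO library but did not pass the test (0.51 ± 0.20, adjusted p = 0.0416 by limma).

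Of the 9 enzymes and folding factors, 7 were higher in KO cells on d4. Gldc, the glycine-cleaving enzyme of mitochondria, had a mean of 190 ± 7.70 (SD, n = 3) TPM in Ctrl cells on d0, 93.7 ± 10.2 on d4 and 127 ± 1.52 on d6. In KO cells it rose from 51.1 ± 2.60 to 190 ± 11.1 and 350 ± 33.4 TPM. The KO level on d4 equalled that of Ctrl cells on d0, and the d4 difference was 1.02 ± 0.08 (adjusted p = 3.64e-08 by limma). Gclm had the smallest standard error of any member, with 105, 116 and 109 TPM in KO against 41.7, 40.2 and 34.7 TPM in Ctrl cells on d4 (1.48 ± 0.07, adjusted p = 1.12e-10 by limma). Glyatl3, of the glycine N-acyltransferase family, had 27.4, 25 and 26.1 TPM in KO against 5.07, 4.28 and 2.41 TPM in Ctrl cells (2.50 ± 0.25, adjusted p = 7.09e-07 by limma). Aspg, an asparaginase, overlapped between the genotypes on d4 (0.10 ± 0.20, adjusted p = 0.688 by limma).

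Among genes of the cytoskeleton, cilia and trafficking, those called included Rsph1 (0.78 ± 0.16) and Ap1s3 (0.49 ± 0.13), whose call was lost when any of 4 of the 6 libraries of d4 was left out.

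Of 6 genes for adhesion, channels, transport and the cell surface, 4 were called higher on d4 and Prnp and Cdh9 were not. Cdh9, a cadherin of neurons, had 3.21, 3.32 and 4.00 TPM in Ctrl and 5.03, 4.13 and 4.67 TPM in KO cells on d4, without overlap but at an adjusted p of 0.119 by limma. On d6 it had 0.346, 0.342 and 0.451 TPM in Ctrl and 9.88, 8.54 and 11.3 TPM in KO cells. Kcng3, a subunit of potassium channels that was singled out after its values were seen, rose from 0 to 1 reads per KO library on d0 to 12 to 15 on d4 and 77 to 101 on d6, with 15 to 23 reads per Ctrl library on d0.

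Tex101 and Ccno stand for the remaining coding genes. Tex101, a surface protein of germ cells, had 7.48, 11.6 and 9.92 TPM in Ctrl cells on d0, 2.10, 2.28 and 3.49 on d4 and 10.2, 9.41 and 12.4 on d6. In KO cells it had 1.41, 1.13 and 1.34 TPM on d0, 3.52, 3.76 and 3.65 on d4 and 14.3, 17.4 and 14.8 on d6. The Ctrl course was a dip with full return and the KO course a steady climb from a low start, and on d4 the gene was not called (0.38 ± 0.16, adjusted p = 0.0597 by limma). Ccno, a cyclin-like protein needed for multiciliated cells, had 1.31, 0.854 and 2.38 TPM in Ctrl and 5.39, 5.88 and 10.1 TPM in KO cells on d4 (1.69 ± 0.34, adjusted p = 0.000513 by limma).

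Among the 4 noncoding RNAs, Gm26644, a lincRNA on chromosome 19, had 0.256, 0.836 and 0.824 TPM in Ctrl and 8.44, 10.0 and 8.03 TPM in KO cells on d4 (2.60 ± 0.29, adjusted p = 2.11e-06 by limma). Gm16233 (1.33 ± 0.31, adjusted p = 0.00163) and 2410080I02Rik (1.65 ± 0.41, adjusted p = 0.00279) were also called, with calls that were lost when Ctrl replicate 2 of d4 was left out (adjusted p = 0.0114 and 0.0141). The call of 2410080I02Rik rested on 3 to 10 reads per KO library and 0 to 1 per Ctrl library on d4. Gm16233 is antisense to Clca4a, which itself lay just outside the Ctrl limit. Whether counting used the strand of the reads is not given in the sources used here, so the reads of these 2 genes cannot be told apart. In all, 24 members overlap another annotated gene, 18 of them one on the opposite strand, and 5 overlap a gene that is itself in the table.

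Members were compared with gene lists for states and lineages, which were set up with earlier results of these data known. The list of the epiblast after implantation holds 3 members (Dnmt3b, Pim2 and Lef1). Of its 18 genes in the table, 13 were higher in KO on d4 and 0 lower, with a median difference of 1.34, beside 12.7% higher and 32.7% lower among all genes. Further genes of the list rose by at least 2 in KO cells without being members, since they also rose in Ctrl cells: Fgf5 by 6.35 in KO and 1.18 in Ctrl cells, Otx2 by 5.85 and 1.03, and Pou3f1 by 5.63 and 1.27. In all 12 of the 18 rose by at least 2 in KO cells, as did 8.76% of all genes, 21 of 36 epithelial genes, 8 of 18 genes of endoderm and 8 of 18 of trophectoderm. Of 14 genes of general pluripotency, 2 are members (Utf1 and Tcea3), 9 were higher and 1 lower on d4. Among 10 genes of the primitive streak, with Fgf8 as the 1 member, 2 were higher and 3 lower, and among 30 germline genes, with Tex101, 3 were higher and 11 lower. The remaining lists hold 0 members, and some of them also had many genes higher in KO on d4. Among 36 epithelial genes 18 were higher and 6 lower, and among 20 targets of p53 13 were higher and 1 lower. Of 18 genes of the naive state 5 were higher and 3 lower, of 17 genes of the Nodal pathway 5 and 6, and of 14 genes of heat shock and stress 4 and 3. Fewer were higher than lower among genes of endoderm (1 and 8 of 18), trophectoderm (2 and 10 of 18), mesoderm (1 and 4 of 10), neural cells (2 and 18 of 25), primordial germ cells (0 and 7 of 11), the two-cell-like state (1 and 10 of 13), imprinted loci (1 and 21 of 28), neural crest and surface ectoderm (1 and 4 of 7), fibroblasts (1 and 3 of 6) and the epithelial to mesenchymal transition (2 and 6 of 11).

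The members are spread over the chromosomes, with 0 of 935 genes on chromosome 11 and at most 6 on any other. Chromosomes 6, 8 and 12, whose genes were on average higher in KO cells on d0 than those elsewhere (medians of 0.08, 0.33 and 0.36), hold 5 members. These are 2 of 560, 2 of 668 and 1 of 440 genes, beside 0.502% of all genes. Of the 5, 3 were called, beside 72.7% of all members, and nothing is read from these counts. The d0 offset of these chromosomes was not seen later. Their medians were -0.24, -0.20 and -0.18 on d4, with -0.16 over all genes, and -0.17, -0.15 and -0.18 on d6, with -0.14 over all genes. The part of the d0 offset in the choice of members was not tested. After subtraction of each chromosome's median in each library, 45 members were called higher on d4. Within 1 Mb of each other lie 4 pairs of members: 9130008F23Rik and Glyatl3 on chromosome 17 (24.1 kb apart), Pim2 and Eras on the X chromosome (40.8 kb), Sh2d5 and Fam43b on chromosome 4 (132.8 kb), and Tex101 and Prr19 on chromosome 7 (624.7 kb). Between Pim2 and Eras the table holds 3 genes, with KO changes from 0.05 to 2.22, none of them higher in KO on d4 at an adjusted p below 0.01. The gene at 2.22 is Pcsk1n, which overlaps Eras on the opposite strand, so the reads of these 2 genes cannot be told apart either. Of 3 genes between Sh2d5 and Fam43b, 1 rose by at least 2 in KO cells and 0 were higher on d4. Of 15 genes between Tex101 and Prr19, 4 rose by at least 2 and 3 were higher on d4.

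Zeb2 binds pairs of boxes with the letters CACCT and CACCTG, so the 300 bases around annotated starts were searched for them on both strands (250 bases before to 50 after each start, RefSeq, GRCm38.p6). A box on the other strand appears in the printed strand as CAGGTG. Windows were found for 44 members and the 11 others had no entry. Of 52 windows, 16 (30.8%) held CACCTG, against 18.9% of the windows of all genes in the table and 20.2% of all windows of the reference. A second CACCT, which may be part of a second CACCTG, was also present in 10 of the 52 windows, against 9.4% and 10.1%. No limit was set on the distance between the boxes, unlike in the paper's motif search. The median GC content was 61.3% both in the members' windows and in those of the table. These shares are a description of letters, and binding was not measured here. The windows of 3 members are shown because these genes are an epiblast gene with a d4 difference of 3.05 and the neighbouring X-linked pair that each hold 2 boxes. Capitals mark CACCTG on either strand. The windows are chr2:153649199-153649498 on the plus strand for Dnmt3b, chrX:7878056-7878355 on the plus strand for Pim2 and chrX:7928558-7928857 on the minus strand for Eras.
Dnmt3b: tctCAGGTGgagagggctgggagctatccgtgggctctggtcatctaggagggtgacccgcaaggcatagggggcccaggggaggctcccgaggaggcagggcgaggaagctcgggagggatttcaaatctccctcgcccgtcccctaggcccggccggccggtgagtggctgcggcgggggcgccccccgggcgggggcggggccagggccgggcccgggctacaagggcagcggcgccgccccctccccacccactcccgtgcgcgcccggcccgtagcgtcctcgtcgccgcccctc
Pim2: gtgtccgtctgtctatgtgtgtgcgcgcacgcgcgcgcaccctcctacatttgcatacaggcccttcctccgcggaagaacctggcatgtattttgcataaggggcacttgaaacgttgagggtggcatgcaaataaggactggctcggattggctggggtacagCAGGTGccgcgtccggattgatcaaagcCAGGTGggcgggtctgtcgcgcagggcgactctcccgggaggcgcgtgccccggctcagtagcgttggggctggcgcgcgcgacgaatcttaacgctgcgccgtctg
Eras: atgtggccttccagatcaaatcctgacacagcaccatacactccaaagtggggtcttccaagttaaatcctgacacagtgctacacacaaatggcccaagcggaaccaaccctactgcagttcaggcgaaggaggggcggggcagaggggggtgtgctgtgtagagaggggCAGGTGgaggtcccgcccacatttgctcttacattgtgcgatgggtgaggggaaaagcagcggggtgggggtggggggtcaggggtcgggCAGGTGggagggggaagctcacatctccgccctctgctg
In Dnmt3b the box lies 247 bases before the start, in Pim2 the boxes lie 85 and 57 bases before it, and in Eras they lie 79 bases before and 12 bases after it. Pim2 and Eras each hold 2 boxes, which lie further apart in Eras than in Pim2. They do not share the d4 result, since Pim2 was called and Eras was not.

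Low read counts limited some members. In at least 1 library, 27 members had fewer than 20 reads in KO cells on d0, 6 on d4 and 2 on d6. In Ctrl cells it was 20, 21 and 22 members. On no day was any group of any member without reads in all 3 libraries.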

How the data were processed

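The authors mapped single 36 bp reads to GRCm38 with TopHat2 2.0.13, counted them per gene with featureCounts 1.4.6, tested genes with DESeq2 and deposited TPM values for 18 libraries, after removing genes that stayed below 5 TPM in nearly all samples and the 20% that varied least. The deposited table also has 3 columns with a variability score per gene, which were not used. The first of repeated rows was kept (81 left out). Whole reads were recovered from the TPM values of all 10965 genes, to within 0.001 reads. This took 1 read to have been added to each gene before scaling, which the paper does not state. The low read counts given above rest on that assumption.

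Genotypes were compared on d4 over all 10965 genes by a linear model with 6 group means on log2(TPM + 1), using lmFit, contrasts.fit and trended eBayes of limma 3.58.1 (R 4.3.3). The steps were tested on simulated data. Positions came from GENCODE M21 for 10922 genes. Tables and figures used Python 3.11.15, pandas 2.3.3 and matplotlib 3.10.9. P-values measure the spread between 3 libraries per group.

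Members and lists were chosen with earlier results of these data known. The members named are those in a list or in the study's text, the 10 with the largest KO change, the 10 with the largest d4 difference, the 5 most abundant on d6, those nearest to the limits and the 5 with the largest change in each direction in Ctrl cells by d4, 29 in all, of which the values of 2 are not reported here. Other members were named, and roles assigned, after their values were seen. Alternatives varied the pseudocount, a TPM minimum, scaling, the fit, pseudogenes, the threshold and each library.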

Additional observations from a re-analysis of the deposited data

How the results depend on the processing

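The number of genes that met the limits was 55, and 59 with a pseudocount of 0.1 (42 of them members), 26 with a pseudocount of 5, 27 with a mean of at least 10 TPM, 66 after median-ratio rescaling (43 members), 88 after quantile normalization, and 51 to 57 when each library was left out. The 40 members called higher on d4 became 18 of 27 with a mean of at least 10 TPM and 25 with the study's thresholds put on the limma fit. They were 35 to 46 in the other fits, 35 with d4 alone and 35 to 40 when each library was left out, and 31 of the 40 were called in all 28 alternative fits that tested every member. No member was called lower in any fit, and at most 1 was lower at an unadjusted p below 0.05. The median d4 difference, 0.91, was 1.02 and 0.62 with pseudocounts of 0.1 and 5, 0.78 with a mean of at least 10 TPM, 1.05 after median-ratio rescaling, 1.19 after quantile normalization, 1.17 with chromosome medians subtracted, 1.17 with voom on recovered reads and 0.86 to 0.93 when each library was left out. Genes called over the whole table split into 1397 higher and 3591 lower, and into 2299 and 2335 after median-ratio rescaling, 2132 and 2276 after quantile normalization, 2680 and 1922 with chromosome medians subtracted and 2053 and 2883 with voom.

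Of 827 values of single members, 802 kept direction and call, 15 lost the call, 2 gained it and 8 changed sign. Those 8 were not called in any case: Aspg without Ctrl d4 replicate 1 (-0.036), Kctd12b after quantile normalization (0.15), and Prnp after median-ratio rescaling (0.17), quantile normalization (0.075), with chromosome medians subtracted (0.22), voom (0.12), without Ctrl d4 replicate 3 (0.03) and without KO d4 replicate 3 (0.040). Leaving out each library gave -0.036 to 0.24 for Aspg and -0.033 to 0.040 for Prnp. The call of Gm16233 was also lost without KO d4 replicate 2 (adjusted p = 0.0104), and that of 2410080I02Rik without KO d4 replicate 3 (adjusted p = 0.0186). Tex101 was called after quantile normalization (0.76) and with chromosome medians subtracted (0.68). The causes were not tested.

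KO and Ctrl libraries of d4 with the same replicate number deviated together with correlations of 0.23, 0.19 and 0.05. These were all above the -0.20 to 0.03 for different numbers, so the numbers may pair the samples weakly. The main fit did not model such pairing. With the replicate number as a block, 39 members were called higher. Depth limits the members with few reads in KO cells on d0 and in Ctrl cells, where 1 read moves the level most.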

Other observations

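The d4 values of 2 further members are given here, picked after they were seen. Hsd17b11, a dehydrogenase of lipid droplets, had 81.8, 72.5 and 74.3 TPM in KO and 32.2, 28.1 and 20.3 TPM in Ctrl cells on d4 (1.49 ± 0.14, adjusted p = 2.22e-07 by limma). Ndrg2 had 83.9, 105 and 87.1 TPM against 29.9 to 40.9 TPM (1.35 ± 0.17, adjusted p = 5.30e-06 by limma). For both, all KO libraries of d4 lay above those of Ctrl.

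Slmo1, Mtcl1 and Pls1 met the limits with d4 differences near 0 (-0.28, -0.02 and 0.22, adjusted p = 0.106, 0.819 and 0.123 by limma) and d6 differences of 0.49, 0.44 and 0.51. Their KO levels on d0 were lower than in Ctrl cells by more than 1 on the log2 scale (-1.22, -1.53 and -1.21). For these 3 genes the difference between the genotypes on d0 was thus larger than that on d6.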
